A study of Mus musculus with 128 samples.

Results

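The genes of compaction and cell polarity described here were chosen by gene symbol: Cdh1, Ctnnb1, Ctnna1, Pard3, Pard6b, Prkci, Prkcz, Ezr and Tjp1. They are 9 of the 41300 genes in the deposited count table, and every one has a row of its own. The study sequenced polyadenylated RNA from single C57BL/6 mouse oocytes arrested at metaphase II (MII) and from whole embryos with 2, 4 or 8 cells, 1 per library. The labels give 16 libraries for each of 8 groups of stage and genotype. Wildtype samples are labelled m+/p- for the histone demethylase gene Kdm4a and knockout samples m-/p-. All eggs were fertilized with Kdm4a knockout sperm, so the paternal allele was mutant in both groups of embryos and the groups differed in the maternal allele. The 2-cell embryos are labelled 1.5 days, the 4-cell embryos 2.5 days and the 8-cell embryos 3.5 days after fertilization. Knockout embryos were collected at the times set by the progress of the controls, and the zona was removed from every sample before lysis. No dose, drug or other treatment separates the groups, and nothing in the labels says which libraries share a mother or a collection day.

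Compaction is the flattening of the blastomeres of the mouse embryo against one another at the 8-cell stage. It depends on E-cadherin, which binds cells together and is tied to the actin cortex through beta-catenin and alpha-catenin. In the same period each blastomere forms an apical domain that holds the Par complex (Par3, Par6 and an atypical protein kinase C) and the membrane-to-actin linker ezrin, and tight junction proteins such as ZO-1 gather between the cells.

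The 127 libraries used held between 528377 and 4657857 counts, with a median of 2130015. One 8-cell knockout library with 419 counts in all was left out. Kdm4a was read first as a check of the labels. Its level was 4.60 to 16.2 counts per 1000000 (CPM) in MII wildtype and 0 to 3.76 CPM in MII knockout libraries, and 5.09 to 22.6 CPM against 0 to 6.02 CPM at the 2-cell stage. At both stages all 16 knockout libraries lay below the wildtype median, though the 2-cell ranges overlapped. At 4-cell (0 to 11.1 against 0 to 4.71 CPM) 13 of 16 lay below the wildtype median. At 8-cell (0 to 3.4 against 0 to 6.29 CPM) 10 of 15 did. The labels were taken as unchecked at 4-cell and 8-cell. Of 12 markers of cumulus and granulosa cells, 6 had no count in any MII wildtype library and 7 had none in MII knockout. Amh was at 0 in every group. Summed over the 12, MII oocytes held 64.4 to 117 CPM (wildtype) or 50.4 to 120 CPM (knockout). At the 8-cell stage the sums were 0.945 to 6.55 CPM (wildtype) and 0.51 to 7.83 CPM (knockout). The summed level of 4 blood cell markers reached 75.7 CPM (median 8.8) among 4-cell wildtype embryos. Among 4-cell knockout embryos it reached 83.5 CPM (median 19.3). Whether somatic cells were present was not tested.

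Among the remaining libraries, 2 stood apart from their groups in these genes. The library labelled 8-cell knockout 7 held 0.962 CPM of Cdh1 and no count of Ctnnb1, where the other 14 libraries held 13.3 to 36.3 CPM and 28.3 to 124 CPM. It held 142 CPM of Pard3, against 2.01 to 16.7 CPM in those 14. Its 8 oocyte markers (zona pellucida genes, Gdf9 and others) summed to 3720 CPM against 17.3 to 128 CPM. A list of 8 genes chosen as markers rising by the 8-cell stage summed to 0.481 CPM in it against 59.5 to 117 CPM. Of that list, 3 genes (Cdx2, Lgals1 and Fgfbp1) had no count in any 8-cell wildtype library. Tfap2c was lower there (median 16.3 CPM) than in MII wildtype (21.6 CPM), so not all 8 rose in these data. The library labelled MII knockout 15 held 1.19 CPM of Cdh1 and 14.3 CPM of Ctnnb1, where the other 15 held 58.4 to 91.6 CPM and 192 to 394 CPM. Its oocyte markers summed to 4250 CPM against 13700 to 18400 CPM. Its Cdh1 and Ctnnb1 levels lay inside the 2-cell knockout ranges of 0.815 to 16.5 CPM and 4.93 to 57.3 CPM, but its summed 2-cell markers (31.3 CPM) lay below the 386 to 2640 CPM of those embryos. For the members, calls by genotype, in knockout stage changes and in interactions are given with and without the library concerned. Knockout medians, ranges, shares and counts of libraries, and most values of other genes, include both libraries unless stated.

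**Figure D1:**
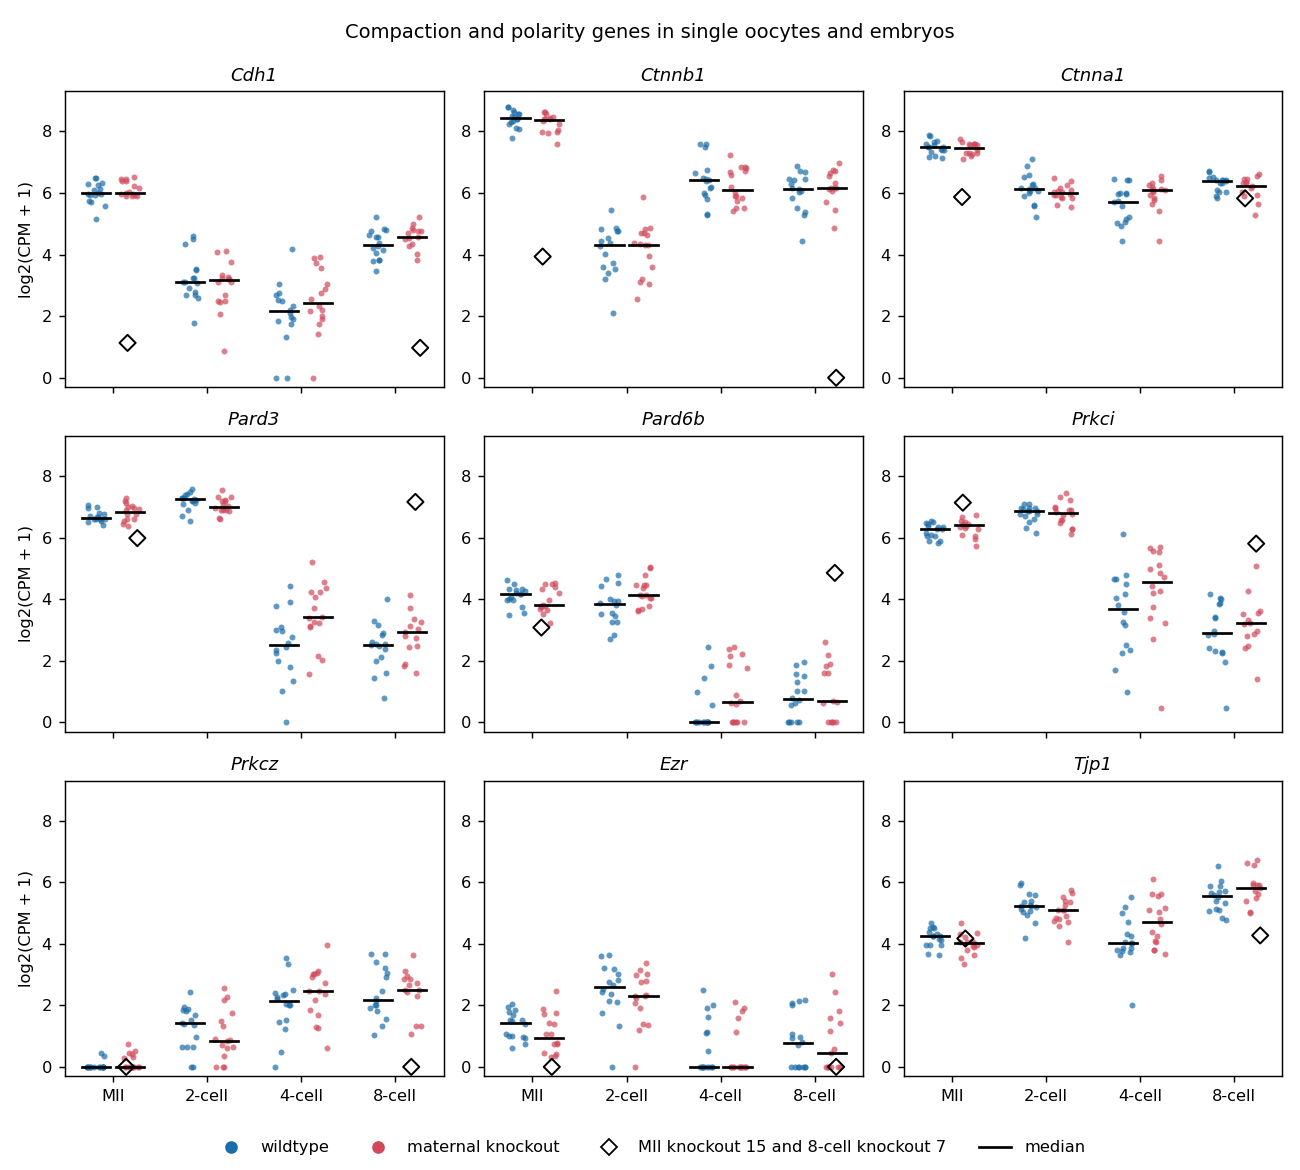
Level of each gene in each of the 127 libraries, as log2(CPM + 1), by stage and genotype. Each point is 1 oocyte or embryo, bars mark medians, and open diamonds mark the libraries MII knockout 15 and 8-cell knockout 7. Pard3, Pard6b and Prkci drop between the 2-cell and 4-cell stages in both genotypes, Cdh1 and Ctnnb1 drop between MII and 2-cell, and 8-cell knockout 7 lies far above its group for Pard3 and far below it for Cdh1 and Ctnnb1.

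Upstream sequence is shown for 4 members, because Pard6b and Prkci dropped at the 4-cell stage while Tjp1 rose at the 8-cell stage and Prkcz was near 0 in oocytes. RefSeq promoter entries (GRCm38.p6) were found for 7 of the 9 genes. Each line gives 200 bases, from 250 to 51 bases before the annotated start, 5′ to 3′ on the gene's strand. Prkcz has 3 annotated starts there, and only the most upstream is shown. Pard6b, Prkci and Tjp1 have 1 each. Capitals mark matches on either strand to 4 motifs: the GC box GGGCGG, the TFAP2 motif GCCNNNGGC, the TEAD motif GGAATG and the NOBOX element TAATTG.
Pard6b, chr2:168080754-168080953, plus strand: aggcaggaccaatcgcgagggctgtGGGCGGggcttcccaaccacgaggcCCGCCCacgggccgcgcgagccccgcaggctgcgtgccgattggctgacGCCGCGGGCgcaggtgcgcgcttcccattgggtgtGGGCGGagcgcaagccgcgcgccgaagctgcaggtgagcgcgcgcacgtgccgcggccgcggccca
Prkci, chr3:30995521-30995720, plus strand: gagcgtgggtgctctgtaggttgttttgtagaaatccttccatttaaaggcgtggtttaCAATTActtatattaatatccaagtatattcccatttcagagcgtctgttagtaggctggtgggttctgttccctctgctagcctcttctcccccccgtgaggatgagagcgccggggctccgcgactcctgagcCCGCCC
Tjp1, chr7:65371295-65371494, minus strand: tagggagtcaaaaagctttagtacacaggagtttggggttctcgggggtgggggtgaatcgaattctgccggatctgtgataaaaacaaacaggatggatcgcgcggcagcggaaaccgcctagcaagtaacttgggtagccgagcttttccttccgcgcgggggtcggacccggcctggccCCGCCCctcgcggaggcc
Prkcz, chr4:155361479-155361678, minus strand: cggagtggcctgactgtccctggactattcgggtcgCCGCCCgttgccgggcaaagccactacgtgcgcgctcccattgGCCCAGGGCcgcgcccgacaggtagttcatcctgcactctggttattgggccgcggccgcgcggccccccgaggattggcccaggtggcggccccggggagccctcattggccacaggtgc
The GC box matched 3 times in the Pard6b window and once in each of the others, and 24.6% of all 32841 promoter windows of this length hold it. The TFAP2 motif matched once in Pard6b and once in Prkcz (10.6% of windows), and the NOBOX element once in Prkci (6.1% of windows). The TEAD motif matched in none of the 4 (10.7% of windows). None of these motifs overlapped another here, and a match is a description of the letters only.

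RNAs of the adhesion complex genes were abundant in the oocyte and fell by the 2-cell stage. Only RNA was measured, so the levels of the proteins and their complexes are not known. Cdh1, which encodes E-cadherin (chromosome 8, 106603351 to 106670246, plus strand, mm10), ran from 34.5 to 88.7 CPM in MII wildtype libraries, with a median of 62.6 CPM. In wildtype 2-cell embryos it ran from 2.42 to 23.2 CPM (median 7.67), so the ranges were separate. At the 4-cell stage it ran from 0 to 17 CPM (median 3.45), with 2 of 16 libraries at 0. By the 8-cell stage it was back at 9.99 to 36.3 CPM (median 19.1), a range that overlapped the 4-cell range and reached only the lower edge of the MII range. The knockout medians followed the same course at 63.6, 7.96, 4.46 and 22.7 CPM.

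Ctnnb1, which encodes beta-catenin (chromosome 9, 120933400 to 120960507, plus strand), showed the largest drop of any member at the first step. Its wildtype range went from 220 to 443 CPM in MII (median 345) to 3.28 to 42.9 CPM at the 2-cell stage (median 19.1). It was back at 38.4 to 192 CPM at the 4-cell stage (median 83.9), 1 stage before Cdh1, and stood at 20.7 to 117 CPM at the 8-cell stage (median 69.6). Knockout medians were 329, 19.0, 67.9 and 70.5 CPM. Ctnna1, which encodes the alpha-catenin that links beta-catenin to actin, moved less. Its wildtype medians were 178, 69.4, 51.5 and 83.6 CPM from MII to 8-cell, and its knockout medians 177, 63.1, 67.3 and 73.9 CPM. The lowest wildtype library at any stage held 20.6 CPM, so Ctnna1 was detected in every wildtype library.

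RNAs of the Par complex genes followed another course. Pard3, the scaffold of the complex (chromosome 8, 127063893 to 127612286, plus strand), ran from 84.1 to 132 CPM in MII wildtype (median 98.5) and from 92.5 to 192 CPM at the 2-cell stage (median 151). It then dropped to 0 to 20.3 CPM at the 4-cell stage (median 4.73) and stayed at 0.746 to 15.1 CPM at the 8-cell stage (median 4.74). No 4-cell or 8-cell wildtype library reached the lowest 2-cell library. Knockout medians were 113, 127, 9.62 and 6.71 CPM.

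Pard6b, an adaptor that joins the kinase to Cdc42 (chromosome 2, 168081004 to 168101203, plus strand), had wildtype medians of 16.8 CPM in MII and 13.4 CPM at the 2-cell stage. At the 4-cell stage 11 of 16 wildtype libraries and 6 of 16 knockout libraries had no count. At the 8-cell stage 5 of 16 wildtype libraries had none and the highest held 2.91 CPM. A count of 0 in these 8-cell libraries allows up to 0.971 to 1.95 CPM, by the rule of 3 counts, so low levels of Pard6b were not detectable.

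The complex has 2 kinases here. Prkci, atypical protein kinase C iota (chromosome 3, 30995747 to 31052959, plus strand), had wildtype medians of 77.2 CPM in MII, 115 CPM at 2-cell, 12 CPM at 4-cell and 6.52 CPM at 8-cell. Its knockout medians were 83.2, 111, 22.8 and 8.39 CPM. Prkcz, atypical protein kinase C zeta (chromosome 4, 155260129 to 155361361, minus strand), was at 0 in 14 of 16 MII wildtype libraries and had medians of 1.66, 3.38 and 3.56 CPM at the next 3 stages. In 8-cell wildtype embryos it was detected in all 16 libraries, at 1.04 to 11.7 CPM.

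Ezr, which encodes ezrin (chromosome 17, 6738041 to 6782784, minus strand), was low throughout. Its wildtype median was 1.71 CPM in MII, 5.02 CPM at 2-cell, 0 at 4-cell and 0.701 CPM at 8-cell. In 8-cell embryos, 7 of 16 wildtype and 7 of 15 knockout libraries had no count of it. Tjp1, which encodes the tight junction scaffold ZO-1 (chromosome 7, 65296165 to 65371239, minus strand), was present in every library. Its wildtype medians were 18.1, 36.4, 15.2 and 46.0 CPM from MII to 8-cell, and its knockout medians 15.3, 33.1, 25.4 and 54.8 CPM.

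Levels can be compared between genes only per length of the gene model, and on that scale the order of the members changed between stages. In MII wildtype oocytes Ctnnb1 led at 95.5 CPM per kilobase (kb), ahead of Ctnna1 at 48.8 and Prkci at 15.8 CPM per kb. Prkci (15.8 ± 2.57, SD, n = 16) and Cdh1 (14.7 ± 3.33) differed by less than their spread, as did Cdh1 and Pard3 (11.8 ± 1.55 CPM per kb). At the 2-cell stage Prkci (23.4 ± 3.99 CPM per kb), Ctnna1 (20.1 ± 6.91) and Pard3 (16.9 ± 2.95) led with overlapping spreads, and Ctnnb1 stood at 5.22 CPM per kb, beside Tjp1 at 5.38. At the 8-cell stage Ctnna1 (21.6 ± 3.83 CPM per kb) and Ctnnb1 (19.5 ± 7.23) led again and were not separated by their spread, followed by Tjp1 (6.58 ± 2.32) and Cdh1 (4.57 ± 1.57). Prkci, Prkcz, Pard3, Ezr and Pard6b were all at or below 1.75 CPM per kb there.

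The first tests asked how each member changed between consecutive stages in wildtype. A member was called where edgeR's quasi-likelihood test gave an adjusted p under 0.05 over all genes tested and the log2 fold change was at least 1 in size. Values are shares of the library, and a lower share, fewer cells of a type and less RNA per cell cannot be told apart. Between MII and 2-cell, 8 members passed the filter on low counts and 4 were called, against 51.1% of all genes tested. Of these, 3 fell (19.2% of all genes fell) and 1 rose (31.9% rose). The log2 fold change was -4.62 for Ctnnb1 (SE 0.26), -3.16 for Cdh1 (SE 0.25) and -1.70 for Ctnna1 (SE 0.12), with edgeR adjusted p of 6.74e-26, 1.22e-18 and 2.31e-20. For these 3 the wildtype libraries did not overlap between the stages, which held for 25.0% of all genes tested. In knockout the values were -4.28, -3.46 and -1.78, and the same 3 genes and Ezr were called, against 49.2% of all genes. Without MII knockout 15 these 4 were called again, with Ctnnb1 at -4.42, Cdh1 at -3.60 and Ctnna1 at -1.88, against 50.8% of all genes. That library lies inside the 2-cell ranges, so with it no member had separate knockout ranges at this step, against 16.1% of all genes.

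Ezr was the member that rose at that step, by 1.24 (SE 0.35, adjusted p = 0.00101, edgeR), from levels near 2 CPM. Tjp1 (0.68, SE 0.14) and Pard6b (-0.67, SE 0.17) passed the p threshold of edgeR but not the fold threshold. The Par complex genes Pard3 (0.09, 95% interval -0.08 to 0.27) and Prkci (0.15, interval -0.09 to 0.38) stayed within narrow bounds. Prkcz did not pass the filter. With no filter its wildtype change was 3.90 (SE 0.63), measured against MII libraries nearly all at 0.

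Between 2-cell and 4-cell, 7 members were tested in wildtype and 6 were called, against 74.4% of all genes. Of these, 5 fell (43.9% of all genes fell) and 1 rose (30.5% rose). The log2 fold change was -4.81 for Pard3 (SE 0.30), -4.56 for Pard6b (SE 0.50) and -3.10 for Prkci (SE 0.34). For these 3 the libraries of the stages did not overlap in wildtype (37.4% of all genes) or in knockout (38.9%). Cdh1 (-1.46, SE 0.38) and Tjp1 (-1.33, SE 0.23) also fell, while Ctnnb1 rose by 2.04 (SE 0.26, adjusted p = 1.67e-10, edgeR). In knockout 4 of the 7 were called (Pard3 -3.73, Pard6b -3.90, Prkci -2.47, Ctnnb1 1.68), against 75.0% of all genes. Ezr did not pass the filter, and with no filter its wildtype value was -2.61 (SE 0.57).

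Scaling moved the values at this step. The median of all genes tested moved by -0.48 in wildtype under the main scaling (TMM) and by -0.76 under the alternative (RLE), and between MII and 2-cell it moved by 0.21 and 0.33. Relative to that median, Pard3 moved by -4.32, Pard6b by -4.08, Prkci by -2.62, Cdh1 by -0.98, Tjp1 by -0.85, Ctnna1 by -0.31 and Ctnnb1 by 2.52 under TMM. No member changed direction between the scalings at any wildtype step. Ctnna1, at -0.79 under TMM and below the fold threshold, passed it under RLE at -1.07.

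Between 4-cell and 8-cell, 7 members were tested and 2 were called, against 20.6% of all genes. Both rose, as 9.32% of all genes did. Cdh1 rose by 2.39 (SE 0.37, adjusted p = 6.65e-07, edgeR) and Tjp1 by 1.46 (SE 0.24, adjusted p = 3.4e-06, edgeR). The 4-cell and 8-cell libraries of both genes overlapped. Ctnna1 passed the p threshold at 0.72 (SE 0.16) without reaching the fold. Pard3 (-0.16, interval -1.15 to 0.83), Prkci (-0.83, interval -1.71 to 0.06), Prkcz (0.62, interval -0.15 to 1.40) and Ctnnb1 (-0.31, interval -0.84 to 0.21) were not called. In knockout Cdh1 rose by 1.95 and Tjp1 by 1.05, against 12% of all genes called. Without 8-cell knockout 7 these values were 2.04 and 1.1, and Prkci (-1.30, SE 0.43, adjusted p = 0.0174, edgeR) was called as well, against 13% of all genes.

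**Figure D2:**
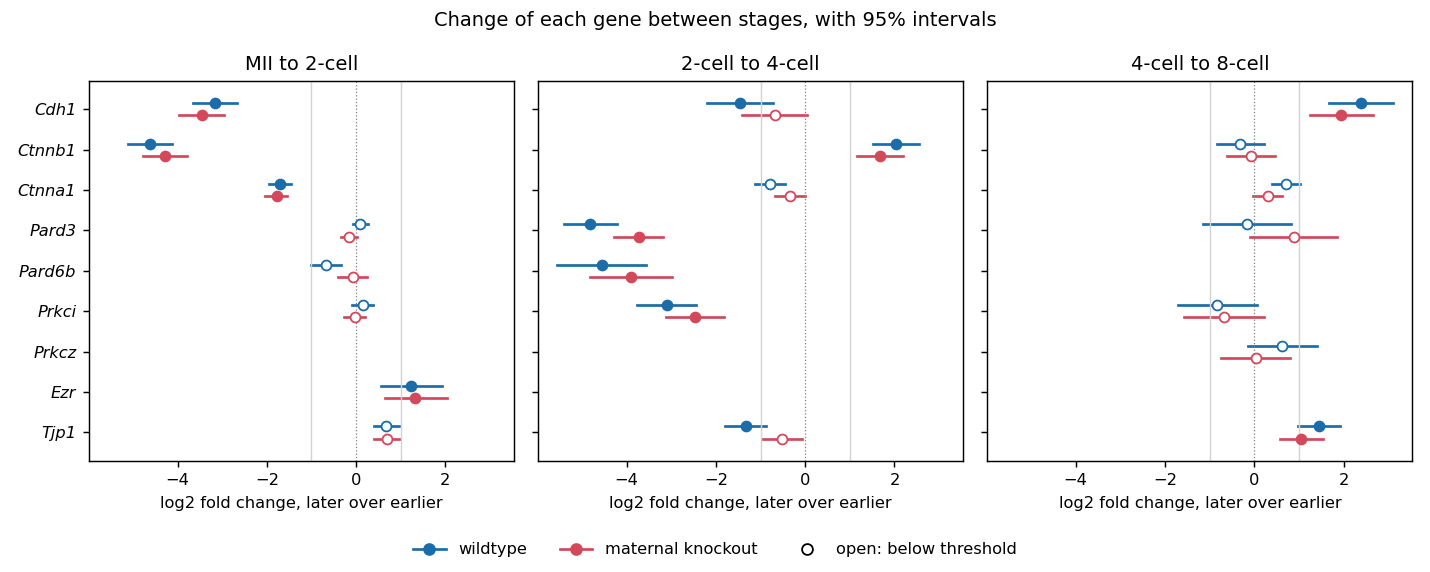
Log2 fold change of each gene between consecutive stages, later over earlier, in wildtype (blue) and maternal knockout (red), with 95% intervals. Filled points passed the threshold of adjusted p and fold, open points did not, and genes with no point did not pass the filter on low counts. Cdh1, Ctnnb1 and Ctnna1 fell at the first step, Pard3, Pard6b and Prkci at the second, and Cdh1 and Tjp1 rose at the third.

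The next comparison was maternal knockout against wildtype within each stage. In MII oocytes 7 members were tested and neither edgeR nor DESeq2 called any, against 12% of all genes called by edgeR. None of the 7 had an unadjusted p under 0.05 in edgeR's test, where 1950 of all 7680 genes tested did. The differences ran from -0.22 for Ctnnb1 (interval -0.58 to 0.13) to 0.22 for Prkci (interval -0.01 to 0.46). Without MII knockout 15 no member was called either, while the count over all genes went from 919 to 1517, or 19.6%. Ctnnb1 was then at -0.13 (interval -0.29 to 0.04) and Prkci at 0.13 (interval -0.06 to 0.32).

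At the 2-cell stage 7 members were tested and none was called by edgeR or DESeq2, against 17.3% of all genes called by edgeR. One of the 7, Pard6b, had an unadjusted p under 0.05 in edgeR's test, as did 2769 of all 8728 genes tested. It ran from 5.54 to 26.4 CPM in wildtype (median 13.4) and from 11.1 to 32.1 CPM in knockout (median 16.6), with 12 of 16 knockout embryos higher than the wildtype median. The ranges overlapped, and the difference was 0.47 (SE 0.20, adjusted p = 0.0955, edgeR). It was called when wildtype replicate 11 was left out, at 0.56. For the other 6 the differences lay between -0.25 (Cdh1) and 0.12 (Ctnnb1).

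At the 4-cell stage 5 members were tested and none was called by edgeR or DESeq2, against 16.4% of all genes called by edgeR. Of the 5, Pard3 and Tjp1 had an unadjusted p under 0.05 in edgeR's test, as did 2278 of all 7478 genes tested. Pard3 and Tjp1 were both higher in knockout. Pard3 ran from 0 to 20.3 CPM in wildtype (median 4.73) and from 1.95 to 35.7 CPM in knockout (median 9.62), with 13 of 16 knockout embryos above that median. The difference was 0.98 (SE 0.41, interval 0.17 to 1.78, adjusted p = 0.0973, edgeR). Tjp1 ran from 3 to 45.0 CPM in wildtype (median 15.2) and from 11.6 to 67.6 CPM in knockout (median 25.4), again with 13 of 16 above. Its difference was 0.66 (SE 0.28, interval 0.12 to 1.20, adjusted p = 0.0964, edgeR). For both genes the groups overlapped over most of their range. Oocyte markers also differed at this stage: their sum ran from 15.4 to 199 CPM in wildtype (median 60.8) and from 70.7 to 766 CPM in knockout (median 124), and its part in these values was not tested.

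The value of Prkci at the 4-cell stage varied with the replicates used. Over all libraries the difference was 0.69 (SE 0.44, interval -0.17 to 1.56). Among replicates 1 to 8 it was -0.44, and among replicates 9 to 16 it was 1.75 and passed the threshold. The difference between these values, 2.17 (SE 0.84), had an edgeR unadjusted p of 0.0141 and an adjusted p of 0.817 over all genes. In that test 0 of 7478 genes were called. The labels do not say that the number marks a batch.

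At the 8-cell stage 6 members were tested and 1 was called, against 11.6% of all genes. That gene was Pard3, at 2.23 (SE 0.61, adjusted p = 0.0149, edgeR). Its wildtype libraries ran from 0.746 to 15.1 CPM (median 4.74). Its knockout libraries other than number 7 ran from 2.01 to 16.7 CPM (median 6.32), almost the same range, and number 7 held 142 CPM. Without that library the difference was 0.36 (SE 0.32, interval -0.28 to 1, adjusted p = 0.495, edgeR) and no member was called, against 12.4% of all genes. None of the 7 members tested then had an unadjusted p under 0.05 in edgeR's test. With all libraries 2 of 6 members had one, beside 1931 of 7219 genes. DESeq2, given all libraries, called no member, and its value for Pard3 was 0.32. It ran with its default replacement of outlying counts, so this value may not include the count of library 7.

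The adhesion genes at the 8-cell stage gave bounds that are more informative than the call. Without library 7, Cdh1 ran from 13.3 to 36.3 CPM in knockout (median 23.9) and from 9.99 to 36.3 CPM in wildtype (median 19.1), with a difference of 0.21 (interval -0.15 to 0.57). Ctnnb1 differed by 0.10 (interval -0.29 to 0.49), Ctnna1 by -0.16 (interval -0.41 to 0.08) and Tjp1 by 0.31 (interval -0.05 to 0.68). Prkci, at 0.96 with all libraries, was at 0.23 (interval -0.46 to 0.93). Prkcz, tested only without library 7, was at -0.05 (interval -0.73 to 0.64). Pard6b and Ezr did not pass the filter at this stage.

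**Figure D3:**
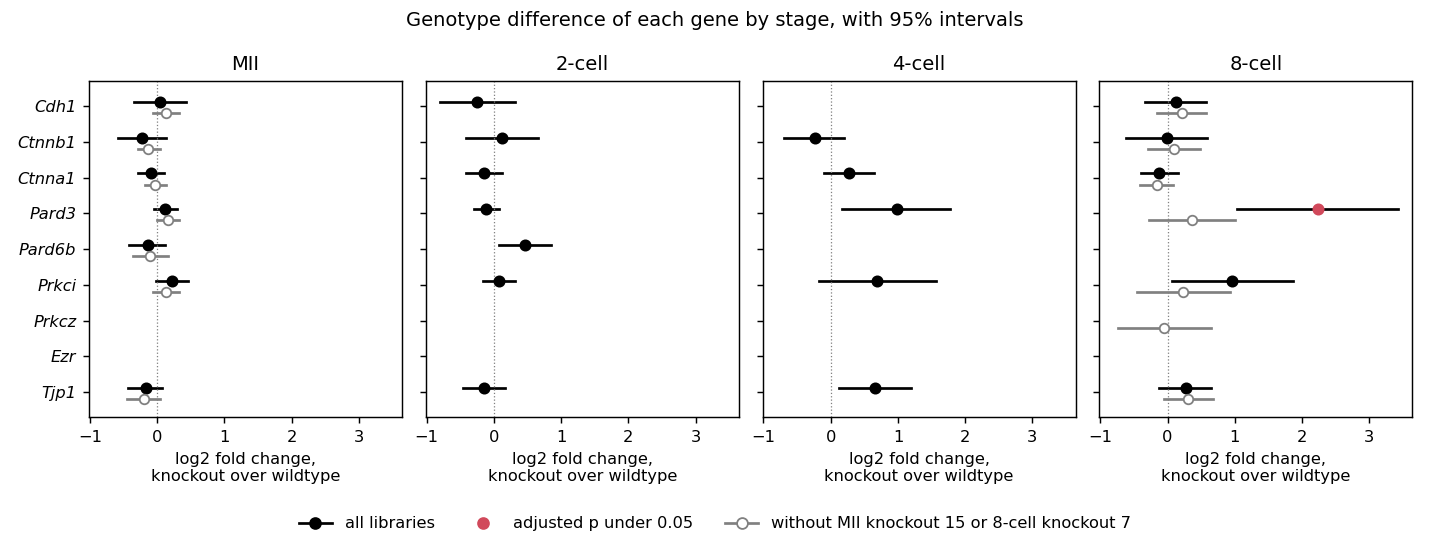
Log2 fold change of knockout over wildtype for each gene at each stage, with 95% intervals. Filled points use all libraries, open grey points leave out MII knockout 15 or 8-cell knockout 7, red marks an adjusted p under 0.05, and genes with no point did not pass the filter on low counts. Pard3 at the 8-cell stage is the one red point, at 2.23, and lies at 0.36 without library 7.

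Whether a stage change differed between genotypes was tested as an interaction. Between MII and 2-cell no member was called by edgeR, against 3.99% of all genes. In that test 1 of 8 members (Pard6b, 0.59, SE 0.23) had an unadjusted p under 0.05, beside 1995 of 10240 genes. Without MII knockout 15 no member was called either, against 6.27%. Between 4-cell and 8-cell edgeR called no member, against 2.73%. None of the 7 had an unadjusted p under 0.05 there, beside 1438 of 8822 genes. Without 8-cell knockout 7 the count of called members was again 0, against 1.86%. Between 2-cell and 4-cell 1 of 7 was called, against 15.5% of all genes, and it was Pard3.

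Pard3 fell less in knockout at that step. Its log2 fold change was -4.81 (SE 0.30) in wildtype and -3.73 (SE 0.28) in knockout, and the difference was 1.07 (SE 0.38, interval 0.33 to 1.81, adjusted p = 0.0412, edgeR). The same difference over all genes tested had a median of 0.20, so that Pard3 lay 0.87 above it. The call was lost in 22 of 64 fits that each left out 1 library, with values from 0.90 to 1.33. It was also lost under RLE scaling (1.02, adjusted p = 0.0554, edgeR), without a filter (1.06) and with all 8 groups in one fit (1.04). The median count of Pard3 per 4-cell wildtype library was 10. Tjp1 had a difference of 0.81 (SE 0.32) with an unadjusted p under 0.05 and an edgeR adjusted p of 0.0726. Of all 10766 genes tested, 3177 had an unadjusted p under 0.05 in that test.

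**Figure D4:**
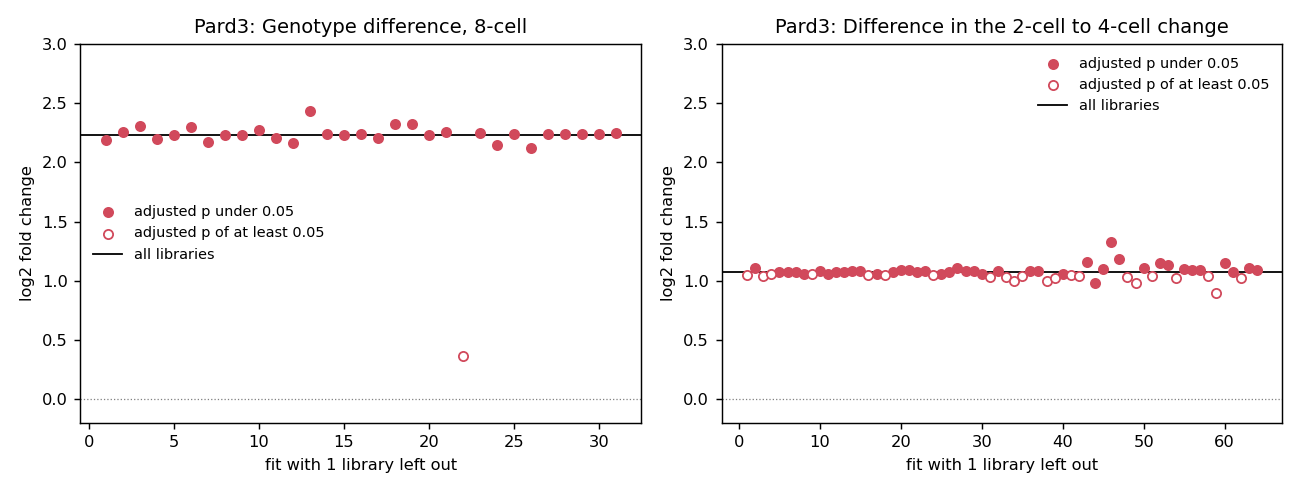
Log2 fold change of Pard3 in fits that each leave out 1 library, for the genotype difference at the 8-cell stage (left) and for the difference between genotypes in the 2-cell to 4-cell change (right). Filled points have an adjusted p under 0.05, open points do not, and the line gives the value with all libraries (2.23 and 1.07). One point on the left falls to 0.36, whereas the points on the right stay between 0.90 and 1.33 with 22 of 64 open.

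Related genes of the same families were read per length, since proteins of a family can share a role. In MII wildtype oocytes Prkci made up a median of 100% of Prkci plus Prkcz. The share was 98.6% at 2-cell, 84.0% at 4-cell and 60.1% at 8-cell, where single libraries ran from 20.5 to 86.4%. The knockout medians were 100%, 99.2%, 82.6% and 59.5%. Prkci has values that are not whole numbers in 29.1% of its non-zero entries and Prkcz in 13.5%, so part of their counts was shared with other positions.

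Cdh2, which encodes N-cadherin, accompanied Cdh1 in the oocyte and the 2-cell embryo and not later. It ran from 17.2 to 50.3 CPM in MII wildtype and from 5.99 to 22.6 CPM at 2-cell, and it had a median of 0 at 4-cell and 8-cell. Cdh1 accordingly made up 68.7% of the 3 cadherins Cdh1, Cdh2 and Cdh3 per length in MII, 32.8% at 2-cell and 96.7% at 8-cell in wildtype. Among the alpha-catenins, Ctnna3 lay above Ctnna1 per length at the 2-cell stage. Ctnna3 ran from 70.5 to 161 CPM there in wildtype (median 101), and Ctnna1 held a median share of 39.6% of Ctnna1, Ctnna2 and Ctnna3 per length. At the 4-cell stage the Ctnna3 median was 0 and the share of Ctnna1 was 100%.

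Pard6g, a second Par6 gene, paralleled Pard6b. Its wildtype median was 20.7 CPM in MII, 13 CPM at 2-cell and 0 at 4-cell and 8-cell. Pard6a never exceeded 2.55 CPM in any wildtype library, so all 3 Par6 genes were near the detection limit in 8-cell embryos. Ezrin has the relatives radixin (Rdx) and moesin (Msn). Rdx ran from 11100 to 14600 CPM in MII wildtype, from 439 to 697 CPM at 2-cell, from 21.0 to 114 CPM at 4-cell and from 8.79 to 48.2 CPM at 8-cell. Ezr made up a median of 0.0191% of the 3 genes per length in MII and 3.88% at 8-cell.

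**Figure D5:**
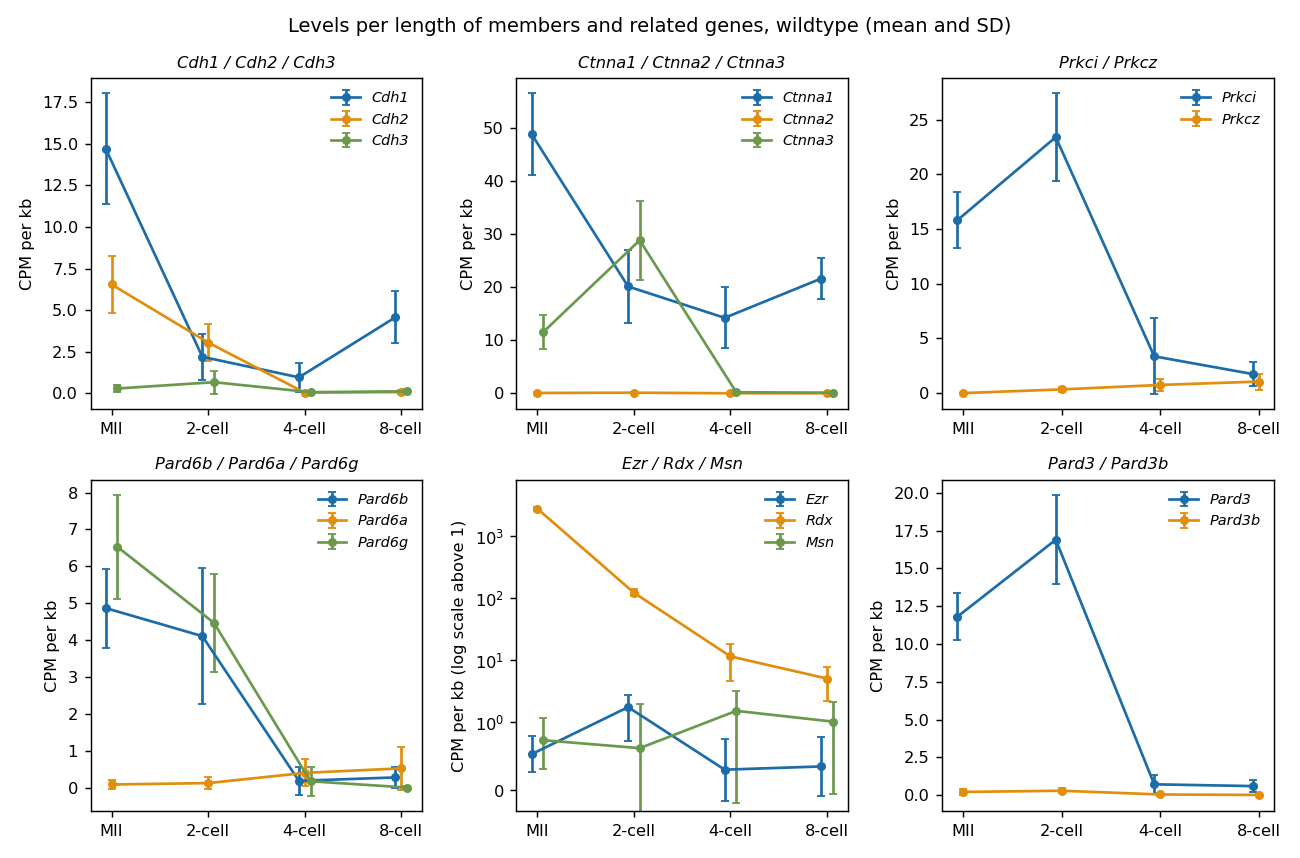
Mean level per length (CPM per kb of gene model, error bars SD, n = 16 wildtype libraries per stage) of members and related genes; the Ezr, Rdx and Msn panel uses a log scale above 1. Ctnna3 exceeds Ctnna1 at the 2-cell stage only, Prkci falls toward Prkcz by the 8-cell stage, and Rdx lies far above Ezr at every stage.

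Other genes of the pathway were taken from 6 lists with 75 genes in the table. Between MII and 2-cell in wildtype, 52 were tested, 12 rose and 10 fell, against 31.9% and 19.2% of all genes, and the median was 0.04 against 0.21 over all genes. Rdx fell by 4.94 (SE 0.14). Nectin3, an immunoglobulin-type adhesion protein, was at -1.62 (SE 0.12) and the tight junction gene Cgnl1 at -2.19 (SE 0.22). Myh10 (non-muscle myosin heavy chain) rose by 2.22 (SE 0.25), Actb by 2.08 (SE 0.18) and the protein kinase C gene Prkcd by 4.30 (SE 0.46). In the list of the actomyosin cortex and ezrin relatives 7 of 16 rose and 1 fell. In the apical polarity list none of 9 was called, where 51.1% of all genes were called. Of these 9, 4 had an edgeR adjusted p under 0.05 without reaching the fold. An unadjusted p under 0.05 was found for 5 of the 9, beside 8044 of all 10240 genes tested.

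Between 2-cell and 4-cell, 50 list genes were tested, 9 rose and 26 fell, against 30.5% and 43.9% of all genes, and the median was -1.12 against -0.48 over all genes. The apical polarity list, which excludes the members, had 6 of 9 lower and 1 higher, beside the same shares. The changes were -8.22 for Crb1 (a Crumbs gene), -5.06 for Mpp5 (Pals1) and -4.86 for Pard6g. The basolateral gene Dlg1 was at -4.16 and the cingulin gene Cgn at -3.54. Tead4, a transcription factor of the trophectoderm lineage, rose by 5.77 (SE 0.42) and Rhoa by 2.45.

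Between 4-cell and 8-cell, 49 were tested, 8 rose and 3 fell, where 20.6% of all genes were called and 9.32% rose, and the median was 0.24 against -0.05. Tight junction genes had 4 of 8 higher and none lower, also beside the 9.32% of all genes that rose. Cldn6 rose by 4.68 (SE 0.70) and F11r by 1.34 (SE 0.33). The Hippo pathway regulators Amotl2 and Amot rose by 3.05 and 2.71. Cldn6 ran from 0 to 4.22 CPM in 4-cell wildtype (median 0) and from 2.43 to 25.0 CPM at 8-cell (median 10.5). In knockout it ran from 0 to 8.99 CPM at 4-cell (median 1.58) and from 0 to 20.4 CPM at 8-cell (median 5.13).

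By genotype, the lists had 1 gene higher and 4 lower of 44 in MII, against 12% of all genes called (405 higher and 514 lower). Without MII knockout 15 they had 3 higher and 4 lower, with Cdc42 and Mark2 called in addition, against 19.6% (759 higher and 758 lower). At 2-cell they had 3 higher and 6 lower of 45, against 17.3% (633 higher and 873 lower). With all libraries the list medians were -0.04 in MII and -0.11 at 2-cell, against 0.02 and -0.01 over all genes. The myosin light chain gene Myl12b ran from 14.7 to 89.7 CPM in MII wildtype (median 54.4) and from 11.3 to 39.2 CPM in knockout (median 20.1), a difference of -1.18 (SE 0.23). At 2-cell the difference of Myl12b was -0.68 (SE 0.16) and that of Myl6 was -0.63 (SE 0.15). The apical scaffold gene Inadl (Patj) was higher in knockout in MII (0.35, SE 0.09) and at 2-cell (0.70, SE 0.13), and Nectin3 was higher at 2-cell (0.63, SE 0.13).

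At 4-cell 4 list genes were higher and 1 lower of 37, against 16.4% of all genes called (671 higher and 558 lower). Epcam, an epithelial adhesion molecule, ran from 13.5 to 107 CPM in wildtype (median 44.6) and from 69.6 to 256 CPM in knockout (median 133), a difference of 1.52 (SE 0.23). Mpp5 was higher by 1.44 (SE 0.44) and Rdx by 0.80 (SE 0.25), and Crb3 was lower at -0.81 (SE 0.20). At 8-cell 7 of 45 were higher and none lower with all libraries, against 11.6% of all genes called. The calls over all genes also leaned that way, with 617 higher and 218 lower (73.9% higher). Without knockout 7, 4 list genes were higher and 0 lower, against 12.4% of all genes (507 higher and 396 lower). Of the 7 list genes called with all libraries, 5 (Nectin3, Mllt4, Ywhaz, Rock1 and Myo10) were then no longer called. Mpp5 (1.14, SE 0.34, adjusted p = 0.0239, edgeR) and Rdx (1.07, SE 0.25, adjusted p = 0.00454, edgeR) were still called, at smaller values than 3.09 and 2.97, and Cldn7 (1.09) and Tfap2c (0.61) were called in addition.

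Genes with the most similar pattern were ranked by Pearson's r of log2(CPM + 1) over 127 libraries among 6300 genes, which describes shared stage changes and shared libraries. Pard3 was closest to Mcu (r = 0.951) and Tcl1b2 (0.947), Pard6b to Cntn1 (0.920), and Prkci to Oog3 (0.901). Ctnnb1 was closest to Smc4 (0.895), Ctnna1 to Tm9sf2 (0.841), Cdh1 to Bin2 (0.807) and Prkcz to Ccne1 (0.810). Tjp1 (S100a11, 0.688) and Ezr (Fabp5, 0.643) had no gene as close.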

How the data were processed

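Single oocytes and embryos were sequenced as SMART-Seq cDNA with Nextera XT libraries, per the labels' protocols. The submitters' processing notes list featureCounts 1.5.1, STAR 2.5.1a, Trimmomatic 0.32 and the build mm10. The sources used here do not give strand settings for counting. In the table deposited by the authors, 30.56% of non-zero values are not whole, so they were taken as estimated counts and rounded. Gene lengths deposited by the authors gave CPM per kb.

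Libraries under 100000 counts were left out, and 127 of 128 were kept. edgeR 4.0.16 (TMM, filterByExpr, robust quasi-likelihood F test) compared genotypes within each stage, and groups of consecutive stages in fits of 4 groups. Benjamini-Hochberg adjustment ran over all genes tested, and 95% intervals are the estimate ± 1.96 SE. That SE is the size of the log2 fold change divided by the square root of the test's F value. The intervals are therefore approximate, above all for genes with few counts or changes near 0. P-values measure the spread between single oocytes or embryos whose mothers are not named. DESeq2 1.42.0, RLE scaling, other filters, all groups in one fit, the replicate block, replicates 1 to 8 and 9 to 16 apart and each library left out were tried, the last for stage changes added after seeing the data. Simulated data with known changes were used to check the fits. The genes and lists were chosen with earlier results of these data known. List genes are named by rank, up to 3 per list and comparison, by p for genotype and by size for stage steps, and 1 list gene is not reported here. The main fits did not treat libraries with the same replicate number as pairs. Such libraries correlated little, which does not show whether they share a mother or a collection day. The limits given for a count of 0 cover counting error only.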

Additional observations from a re-analysis of the deposited data

Results flagged for a closer look

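The 2-cell to 4-cell change of Pard3 differed between genotypes by 1.07 on the log2 scale (edgeR adjusted p = 0.0412), the fall being larger in wildtype (-4.81) than in knockout (-3.73). It was picked out because a test of the difference between the groups' changes passed its threshold, which 15.5% of all genes tested also did. The adjusted p rose above 0.05 in 22 of 64 fits with 1 library left out, under RLE scaling (adjusted p = 0.0554, edgeR), without a filter (0.0714) and with all 8 groups in one fit (0.135). The summed oocyte markers at the 4-cell stage were higher in knockout (median 124 CPM) than in wildtype (60.8 CPM), and their part in the Pard3 difference was not tested.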

How the results depend on the processing

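Counts depend on the settings as follows. For genotype at 8-cell, 1 member was called in the main analysis. The number was 0 by DESeq2, under the stricter filter, with the replicate block and in replicates 1 to 8 or 9 to 16. DESeq2 ran with its default replacement of outlying counts, and the stricter filter removed Pard3 rather than testing it. At 4-cell 1 member was called in replicates 9 to 16 (0 in the main analysis). For the 2-cell to 4-cell interaction 0 members were called under RLE scaling, without a filter or with all 8 groups in one fit.
Over all genes, no filter gave 2670 calls at 4-cell, 2895 at 8-cell, 14100, 16904 and 4319 for the 3 wildtype steps, and 221 and 1030 for the first and last interactions. All groups in one fit gave 3033 for the wildtype 4-cell to 8-cell step, and 116 and 1632 for those interactions. RLE gave 484 for the last interaction. Replicates 1 to 8 gave 140 at 4-cell, 1 at 8-cell, 854 for the last wildtype step, and 637 and 5 for the second and last interactions. Replicates 9 to 16 gave 164 in MII, 140 at 2-cell, 412 at 4-cell and 112 at 8-cell, and 17, 329 and 7 for the interactions. The cause was not tested, apart from fewer samples in the replicate subsets and more genes without a filter.
The replicate block gave 115 calls at 8-cell and 34 for the last interaction. Same-numbered libraries had mean correlations of -0.024 to 0.030 over the stages, and a knockout library was closest to its own number in 1 to 3 of 16 cases (2 of 15 at 8-cell).
Results that changed direction were all uncalled before and after. In replicates 1 to 8 these were, by genotype, Ctnnb1 at 2-cell (-0.08) and 8-cell (0.03), Prkci at 4-cell (-0.44), and Cdh1 (-0.03) and Ctnna1 (0.01) at 8-cell, the wildtype 4-cell to 8-cell change of Pard3 (0.35), the 2-cell to 4-cell interaction of Prkci (-0.56), and the MII to 2-cell interactions of Ctnnb1 (-0.03), Ezr (-0.88) and Tjp1 (-0.01). In replicates 9 to 16 they were Cdh1 (0.15) and Tjp1 (0.07) at 2-cell, Pard3 (-0.05) and Tjp1 (0.03) in MII, the 4-cell to 8-cell interactions of Pard3 (-0.12), Prkci (-1.43) and Prkcz (0.02), and the MII to 2-cell interactions of Cdh1 (0.11) and Pard3 (0.05). With the replicate block they were Cdh1 in MII (-0.03), the wildtype 4-cell to 8-cell change of Pard3 (0.04), and the interactions of Pard3 (-0.21) and Prkci (-0.18) at that step. Without a filter they were the MII to 2-cell changes of Pard3 (-0.07) and Prkci (-0.01) and the last interaction of Prkci (-0.03). The stricter filter gave Ctnnb1 at 8-cell 0.01, and RLE gave the MII to 2-cell interaction of Tjp1 -0.04.
With 1 library left out, calls over all genes by genotype ran from 746 to 1517 in MII, the upper value without MII knockout 15, from 1220 to 1769 at 2-cell, from 1129 to 1368 at 4-cell and from 736 to 903 at 8-cell. For the interactions they ran from 298 to 651 (again without MII knockout 15), 1509 to 1781 and 166 to 329. Members called stayed at 0 or 1 by genotype and went from 0 to 2 for the 2-cell to 4-cell interaction. Tjp1 was called at 4-cell without wildtype 12 (0.80) and Pard3 without wildtype 14 (1.23). Values with a change of sign ran from -0.05 to 0.23 for Ctnnb1 at 2-cell, -0.09 to 0.10 for Ctnnb1 at 8-cell, 0 to 0.14 for Cdh1 in MII, -0.35 to 0.11 for the last wildtype change of Pard3, -0.62 to 1.23 and -0.47 to 0.27 for the last interactions of Pard3 and Prkci, and -0.13 to 0, -0.02 to 0.35 and -0.06 to 0.07 for the first interactions of Ctnna1, Ezr and Tjp1. Among the members, other calls that were lost were those of Cdh1 (-0.83) and Tjp1 (-0.77) between 2-cell and 4-cell and of Ezr (0.81) between MII and 2-cell, all in replicates 9 to 16. Of the named list genes' values under these alternatives, 58 lost their call and 344 stayed on their side of the threshold. The lost ones include Inadl (0.28) and Nectin3 (0.48) at 2-cell in replicates 9 to 16, Epcam at 4-cell in replicates 1 to 8 (1), Crb3 at 4-cell in both subsets (-0.72 and -0.90), and Mpp5 (1.76) and Rdx (1.27) at 8-cell with the replicate block. Depth limits Ezr and Prkcz at every stage, Pard6b at 4-cell and 8-cell, Cdh1 at 4-cell, and Pard3 in wildtype at 4-cell and 8-cell, where the median count per library was at most 10.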
